A study of Mus musculus with 16 samples.

Results

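H3K27Ac ChIP-seq peak lists of 5 inflamed Mdr2-/- livers were compared with those of 5 WT livers, which are 10 of the 16 samples of the study and 10 of the 15 samples with a peak list. Samples were taken into the comparison by their labels, as WT liver or inflamed Mdr2-KO liver. The WT livers are labelled as FVB.129P2 Mdr2-WT, where the study's text names the WT strain as FVB/NJ, and as 14 to 19 months old, whereas the inflamed livers are labelled as FVB.129P2-Abcb4tm1Bor/J Mdr2-KO and as 7 to 8 months old. The study calls its WT mice age matched, but by the labels genotype and age differ together and their parts cannot be told apart. The knockout is present in every cell of the animal, males and females were used without the sex of each animal being given, and each library came from 1 animal. All 10 mice had received clodronate liposomes, which deplete phagocytic macrophages, at 50 μg per g for 48 h by the labels, a dose that the study's text gives differently. The material was whole liver tissue, so that more cells of a type and more acetylation per cell cannot be told apart.

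Mdr2, encoded by Abcb4, is the canalicular transporter that carries phosphatidylcholine from hepatocytes into bile. Without it bile salts are not held in mixed micelles, bile ducts are injured, and a chronic inflammation of the liver develops in which tumours arise late. H3K27Ac, the acetylation of lysine 27 of histone H3, marks active promoters and active enhancers, and wide stretches of it lie over strongly transcribed genes and enhancer clusters. A peak is a stretch of genome where the immunoprecipitated reads exceed the background by the peak caller's model.

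Peaks on chromosomes 1 to 19 of the 10 livers were merged where they overlapped or adjoined, which gave 46839 regions in mm9 coordinates. A region was called gained when all 5 inflamed livers and no WT liver had a peak in it, lost when all 5 WT livers and no inflamed liver had one, and shared when all 10 had one. Read counts were not used here and the depth of each library is unknown, so that a longer peak list can follow from more reads. Gene annotation of mm9 was not used here, and the labelled tissue was not checked against the marker genes of liver cells.

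WT animal 130748 stood apart from the other WT livers. Its mean Jaccard index with them (the sequence covered in both livers as a part of that covered in at least 1) was 0.505, against 0.666 to 0.706 for the mean indices of the other 4 WT livers. Its indices with the inflamed livers, from 0.459 to 0.505, were no higher. Among themselves the other 4 WT livers had mean indices from 0.720 to 0.773, a range that overlaps that of the inflamed livers within their group, 0.737 to 0.779. The study's own plot of the H3K27Ac profiles left out some samples as outliers, and its text does not say which. Counts of gained, lost and shared regions, the distances and neighbours of changed regions, and the width calls are given with and without WT animal 130748. So is the number of chromosomes whose share of peaks differed. Base totals, window counts, runs and the positions of changed regions along chromosomes are given only with it.

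Inflamed livers had more peaks than WT livers, and most of the additional peaks lay outside the regions shared by all animals. That place is largely set by the definition, since every liver has a peak in each shared region. An additional peak can lie inside a shared region only where the region is divided into several peaks. The WT livers had 25867, 27101, 27749, 28277 and 29618 peaks, and the inflamed livers 35188, 37213, 37432, 38115 and 40063. No WT liver reached the lowest inflamed liver, and the means were 27722 ± 1390 and 37602 ± 1756 (SD, n = 5 each, ratio 1.36, exact two-sided permutation test, p = 0.00794, adjusted p = 0.0185 over 7 measures). This p is the smallest that the assignments of 10 animals to 5 and 5 allow. Outside shared regions WT livers had 9739 ± 1510 peaks and inflamed livers 18447 ± 1694 (ratio 1.89, exact permutation, adjusted p = 0.0159 over measures added after values were seen). The length under those peaks was 30.4 ± 6.50 Mb in WT and 53.6 ± 6.66 Mb in inflamed livers (SD, n = 5), without overlap of the groups. Neither difference was seen with every list cut to its best 25867 peaks, the length of the shortest list. The peaks outside shared regions then numbered 10111 in WT and 9878 in inflamed livers (exact permutation, p = 0.595), and covered 34.3 and 36.0 Mb (exact permutation, p = 0.595), with overlapping groups. With lists of 1 length that number varies only by how many peaks divide a shared region. It therefore cannot show where the additional peaks of the longer lists lay.

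**Figure D1:**
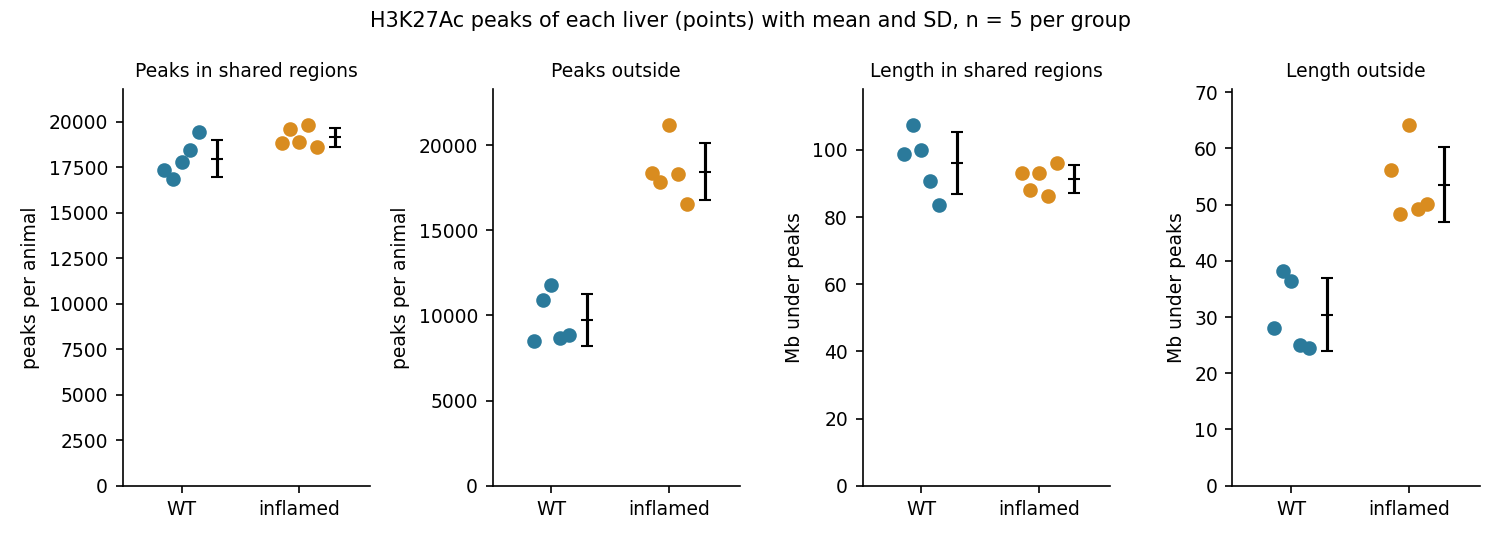
Number of H3K27Ac peaks and length under peaks (Mb) of each liver, inside and outside regions with a peak in all 10 livers, with every axis starting at 0. Points are animals and bars are mean ± SD (n = 5 per group); outside shared regions every inflamed liver lies above every WT liver, whereas inside them the lengths overlap.

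Inside the shared regions the length under peaks was 96.1 ± 9.13 Mb in WT and 91.4 ± 4.06 Mb in inflamed livers (exact permutation, adjusted p = 0.372), and the groups overlapped. Shared regions therefore held 76.1 ± 2.42% of the covered length of a WT liver but 63.1 ± 2.50% of that of an inflamed liver (adjusted p = 0.0185, exact permutation). The WT livers ranged from 73.3% to 78.4% and the inflamed livers from 59.2% to 65.8%. With equal lists the difference was -2.63 percentage points and did not pass the test (exact permutation, adjusted p = 0.119). The total covered length, 127 ± 15.2 Mb in WT and 145 ± 9.17 Mb in inflamed livers (adjusted p = 0.0833, exact permutation), overlapped between groups, and with equal lists the difference, inflamed minus WT, was -4.34 Mb.

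Of the 46839 regions 2898 were gained, 6.19% of all, and 238 were lost, 0.508% of all. Gained regions thus made up 92.4% of the 3136 regions that separated the groups. The shared regions numbered 15329, 32.7% of all, and 3653 regions had a peak in only 1 inflamed liver and 3393 in only 1 WT liver. Just outside the definition, 1860 regions had a peak in 5 inflamed livers and 1 WT liver and 1829 in 4 inflamed livers and no WT liver. On the side of the losses the same counts were 132 and 542. Leaving out WT animal 130748 raised the counts to 4069 gained, 526 lost and 17946 shared regions, and lost regions numbered 464 without WT animal 134501. Leaving out any animal loosens the definition, and no such count fell below 2936 gained or 244 lost regions. With equal lists of 25867 peaks 1035 regions were gained and 569 lost, so that gained regions made up 64.5% of the changed ones.

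**Figure D2:**
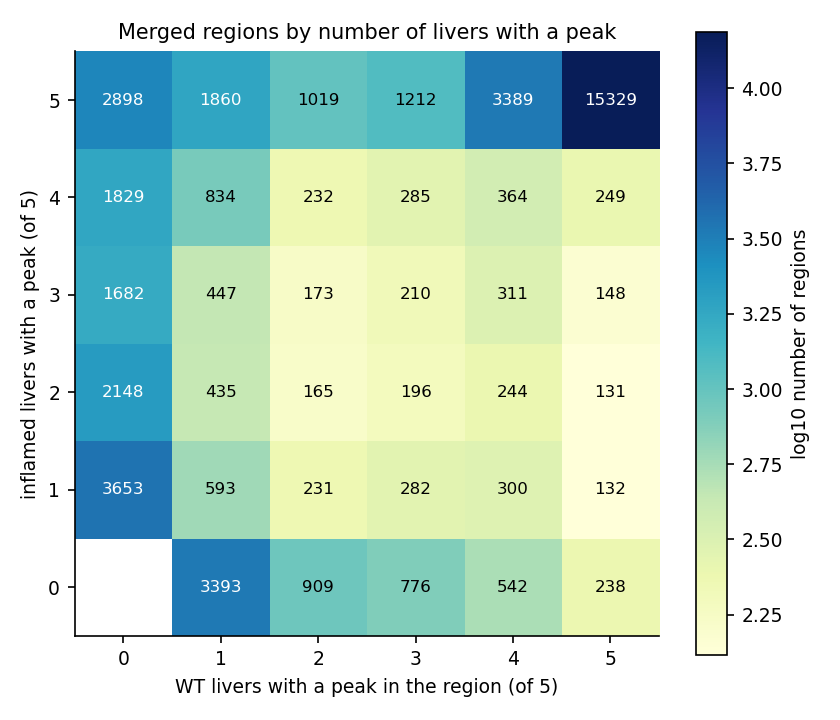
Number of merged regions by how many of the 5 WT livers (horizontal axis) and 5 inflamed livers (vertical axis) had a peak, with colour on a log10 scale. The 2898 gained regions are at the upper left, the 238 lost regions at the lower right and the 15329 shared regions at the upper right; regions missing from 1 WT liver only (3389) outnumber those missing from 1 inflamed liver only (249), and 2443 of the 3389 lacked it in WT animal 130748.

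Changed regions were short beside shared ones. The median width was 3499 bp for gained, 4037 bp for lost and 5862 bp for shared regions, and the gained regions summed to 11.5 Mb, the lost regions to 1.09 Mb and the shared regions to 124 Mb. A shared region merges the peaks of 10 livers and a gained or lost one those of 5, which by itself can widen shared regions. Single peaks of inflamed livers had a median width of 2726 bp in gained and 3758 bp in shared regions (median over animals). In WT livers the values were 3007 bp in lost and 4150 bp in shared regions. Mixed regions, with a peak in 5 of the 10 livers but neither gained nor lost, numbered 1503 and had a median width of 3019 bp. Within each inflamed list, ordered by the caller's score, the median percentile of peaks of gained regions was between 26.3 and 42.3 over the 5 animals, below the middle of every list, against 70.3 to 74.4 for peaks of shared regions. Other peaks outside shared regions had median percentiles from 27.5 to 28.4, which the gained regions exceeded in 4 of the 5 lists and not in animal 148990. Peaks of lost regions had median percentiles from 23.6 to 37.3 in the WT lists, where those of shared regions had 62.5 to 66.8.

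The gained regions with the most covered sequence in their least covered inflamed liver were wider than the median shared region, and they were chosen by that length. The region chr14:41706130-41722834 had 13648, 15486, 15918, 16005 and 16364 bp under peaks in the inflamed livers and none in WT livers. It lay 8331 bp from the nearest shared region. The region chr10:83849208-83861765 had between 11861 and 12444 bp under peaks in the 5 inflamed livers. The region chr2:60529712-60544179 had 10672 to 14468 bp, lay 87366 bp from a shared region and was 1 of 5 gained regions in its window of 1 Mb. The region chr3:151804540-151816906 had 10275 to 12051 bp. The peaks of these 4 regions were not the strongest of their lists, with percentiles from 16.9 to 72.5. With equal lists the regions on chromosomes 14, 10 and 3 kept a peak in 4 of the 5 inflamed livers, as did that on chromosome 3 with scores of at least 100.

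The region chr1:188403118-188415679 combined length, rank and isolation. The inflamed livers had 10407, 10485, 10774, 10896 and 12562 bp under peaks there, at score percentiles from 91.6 to 94.1 of their own lists. These percentiles are the mean rank of the peaks tied at a score of 3100, which 3788 to 5906 peaks of each inflamed list share. The rank among those peaks is unknown. Its nearest shared region was 156164 bp away, and 11 gained regions lay in its window of 1 Mb, a number that only 1 other window reached. It remained gained with equal lists.

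Lost regions were named by the same rule and lay close to shared ones, except for that on chromosome 12. The region chr11:78232388-78242595 had 9026, 9223, 9251, 9534 and 9918 bp under peaks in WT livers and none in inflamed livers, at 3916 bp from a shared region. The region chr15:88656893-88664469 had 6931 to 7565 bp and lay 1473 bp from a shared region. The region chr2:30228949-30241018 had 6519 to 7118 bp in 4 WT livers and 12070 bp in animal 130748, at 1463 bp from a shared region. The region chr13:25075292-25084196, with 6089 to 6683 bp, was separated from a shared region by 80 bp. The region chr12:85127972-85134964 had 5856 to 6963 bp, lay 74722 bp from a shared region and had score percentiles from 69.3 to 76.6 in the WT lists. When peaks up to 1000 bp apart were merged, the regions on chromosomes 11 and 13 were no longer lost regions of their own, and with scores of at least 100 that on chromosome 13 had a peak in 4 of the 5 WT livers.

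Gained acetylation lay far from shared acetylation, whereas lost acetylation lay near it. The median distance to the nearest shared region was 44476 bp for gained regions and 11550 bp for lost regions, and the middle 50% of the distances ran from 12289 to 117504 bp and from 3727 to 37115 bp. Within 10000 bp of a shared region were 21.6% of gained, 47.1% of lost and 31.1% of mixed regions. Beyond 100000 bp were 29.2% of gained and 13.0% of lost regions. Regions with a peak in only 1 inflamed liver were as remote as the gained ones, with a median of 46189 bp, and those of only 1 WT liver lay at 17899 bp. The distance is thus not particular to regions gained in all 5 animals. The gained and lost medians were 31892 and 10331 bp without WT animal 130748, and 48111 and 13468 bp with equal lists.

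The same was seen animal by animal. Peaks outside shared regions lay at a median of 17738, 18728, 18902, 19690 and 19912 bp from the nearest shared region in the WT livers. In the inflamed livers the medians were 27405, 30102, 30328, 31040 and 32408 bp. The groups did not overlap (18994 ± 864 and 30257 ± 1830 bp, SD, n = 5, ratio 1.59, exact permutation, adjusted p = 0.0185). With equal lists the means were 21331 and 31988 bp, still without overlap (exact permutation, adjusted p = 0.0476). Within 10000 bp of a shared region lay 34.5 ± 0.90% of these peaks in WT and 25.9 ± 1.19% in inflamed livers.

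**Figure D3:**
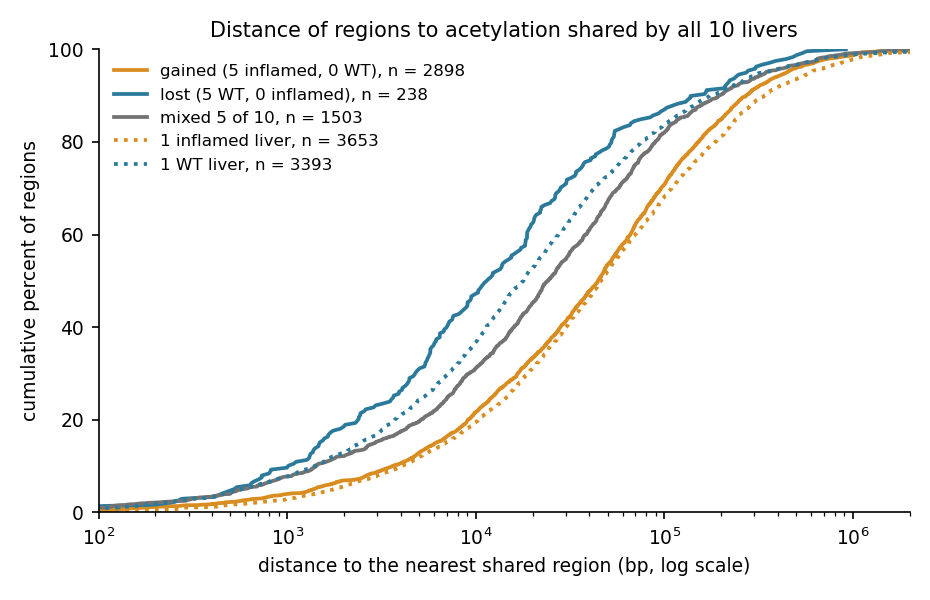
Cumulative percent of regions (vertical axis) within a distance of the nearest shared region (horizontal axis, bp, log scale) for gained, lost and mixed regions and for regions with a peak in 1 liver only. The curves of gained regions and of regions of 1 inflamed liver run together on the right (medians 44476 and 46189 bp), and that of lost regions lies farthest left (11550 bp).

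Gained regions adjoined other gained regions more often than their share of all regions. Of 2898 gained regions 779 (26.9%) had another gained region as the next region on one side or the other. Counted over neighbouring places, 14.9% of the neighbours of gained regions were gained, against 6.19% of all regions. Lost regions were few but also adjoined each other, with 4.63% of their neighbours lost against 0.508% of all regions, which came to 21 regions. With equal lists the neighbours of gained regions were gained at 11.2% of places, against 2.82% of all regions, and those of lost regions lost at 5.62%, against 1.55%. Without WT animal 130748 the same shares were 18.2% against 8.91% for gained and 6.66% against 1.15% for lost regions. Relative to its share, the lost class adjoined its own kind more than the gained class did with all peaks, but not with equal lists. Gained and lost regions seldom met, since 12 of the 5794 neighbours of gained regions (0.207%) were lost. Shared regions were 21.2% of the neighbours of gained regions and 41.1% of the neighbours of lost regions, against 32.7% of all regions. Mixed regions had mixed neighbours at 3.46% of places, against 3.21% of all regions. Regions of only 1 liver adjoined their own kind as well, at 13.0% of places against 7.80% of all regions for inflamed and 12.6% against 7.24% for WT livers, so that adjoining is not particular to gained regions.

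Most gained regions nevertheless stood alone. There were 2119 gained regions without a gained neighbour, 277 pairs, 54 runs of 3, 12 runs of 4 and 3 runs of 5. The runs of 5 were at chr1:92551314-92589112, with 22844 bp covered in a span of 37799 bp, at chr17:14711800-14795528 and at chr2:11979027-12113620. Among lost regions the only run of 3 was chr12:73794105-73829657.

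By windows of 1 Mb, 1213 of 2180 windows with any region held a gained region, 204 held a lost one and 139 held both. The most gained regions, 11 each, were in the windows from 188 to 189 Mb of chromosome 1 and from 40 to 41 Mb of chromosome 9. The former held 1 shared region and the latter 6. Next came 10 gained regions from 19 to 20 Mb of chromosome 10 and 10 from 20 to 21 Mb of chromosome 13, and the latter window had no shared region at all. Another 4 windows held 9 gained regions each. Lost regions reached 3 in 6 windows, of which 2 adjoined, from 73 to 75 Mb of chromosome 12. Among regions that were not shared, the gained part was 9.57% in windows without a shared region, 10.01% with 1 to 4, 9.90% with 5 to 9, 8.59% with 10 to 19 and 7.63% with 20 or more. The lost part was 0.453%, 0.428%, 0.623%, 1.06% and 0.931% in the same windows, so that losses were relatively more frequent where shared regions were dense.

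Gained regions were spread over all 19 autosomes, from 4.49% of the regions of chromosome 19 to 7.65% of those of chromosome 13, against 6.19% of all. Lost regions ranged from 0.245% on chromosome 2 to 0.781% on chromosome 12. The share of an animal's peaks on each chromosome was compared by exact permutation, and 7 of 19 chromosomes (36.8%) passed an adjusted p of 0.05. Inflamed livers had larger shares on chromosomes 2, 13, 15 and 18 and smaller shares on chromosomes 4, 8 and 19. The differences were small. Chromosome 4 held 6.75 ± 0.15% of the peaks of WT and 6.37 ± 0.058% of those of inflamed livers (exact permutation, adjusted p = 0.0302), and chromosome 13 held 4.52 ± 0.18% and 4.82 ± 0.076% (exact permutation, adjusted p = 0.0302). With equal lists, and without inflamed animal 148997 or 149198, 0 chromosomes passed, at a smallest adjusted p of 0.0503 in each case, while 6, 7 and 7 had an unadjusted p below 0.05 (exact permutation). Without inflamed animal 149199 or 148990 there were 4. Without WT animal 130748 there were 7, at a smallest adjusted p of 0.0431, and 12 had an unadjusted p below 0.05 (exact permutation). With all 10 livers 8 had an unadjusted p below 0.05 (exact permutation). By position, with each chromosome divided into 10 parts of equal length, gained regions made up between 5.17% and 7.09% of the regions of a part, lowest in the ninth. Lost regions were most frequent in the last part (0.741%) and least frequent in the second (0.260%).

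Base by base, 10.2 Mb lay under peaks of all 5 inflamed livers and of no WT liver, and 2.20 Mb under peaks of all 5 WT livers and of no inflamed liver. Both totals, and their division among region classes, are given only with WT animal 130748. How far they depend on that animal was not computed. Lost regions numbered 238 with it and 526 without it, and gained regions 2898 and 4069. Leaving out any animal loosens the definition, and it raised both counts in every case. Of all 233 Mb under any peak, shared regions held 53.3%, gained regions 4.94% and lost regions 0.467%. Gained regions held 68.1% of the gained bases and shared regions 11.2%, in 1212 of them. Lost regions held 24.8% of the lost bases and shared regions 64.5%, in 2452 of them. Under peaks of all 10 livers lay 60.1 Mb.

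The width of acetylation at the 15329 shared regions was therefore examined. The median length under peaks per shared region was 3535, 3998, 4357, 4523 and 4907 bp in the WT livers, lowest in animal 130748, and 3818, 3905, 4204, 4207 and 4336 bp in the inflamed livers. The groups overlapped (4264 ± 522 and 4094 ± 221 bp, SD, n = 5, exact permutation, adjusted p = 0.540). The difference of -170 bp was -351 bp without WT animal 130748 and between -351 and -20.5 bp over all fits that left out 1 animal, and it passed the test in none of these fits (exact permutation, adjusted p from 0.119 to 0.921). A shared region was divided into 1.17 ± 0.066 peaks in WT and 1.25 ± 0.035 in inflamed livers (exact permutation, adjusted p = 0.0833). Without WT animal 130748 the values were 1.12 ± 0.040 and 1.21 ± 0.031 and did not overlap (exact permutation, adjusted p = 0.0139), whereas with equal lists they were 1.16 and 1.18 (exact permutation, adjusted p = 0.698). The median width of all peaks, 3391 ± 357 bp in WT and 3010 ± 172 bp in inflamed livers (adjusted p = 0.0833, exact permutation), differed by -502 bp (inflamed minus WT) without that animal (exact permutation, adjusted p = 0.0222), but with equal lists it was 80.2 bp larger in inflamed livers.

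Region by region, covered length was compared on the log2 scale by limma with Benjamini-Hochberg adjustment over all shared regions. At an adjusted p of 0.05, 751 regions (4.9%) were wider and 1378 (8.99%) narrower in inflamed livers. The median change over all shared regions was -0.06 on the log2 scale, and wider regions made up 35.3% of the calls. When each liver was first centred on its own median, 1091 were wider and 1258 narrower, and wider regions made up 46.4%. Centring moves the typical change towards 0 by construction, and the median change was then -0.01 on the log2 scale. The more even calls are therefore not a separate result, and what else moved the counts was not tested. Of the 751 wider regions 707 were also called wider after centring, and of the 1378 narrower ones 999 narrower. Every inflamed liver exceeded every WT liver at 759 regions (4.95%), and every inflamed liver was below every WT liver at 1376 (8.98%). Without WT animal 130748, 1439 of 17946 shared regions were wider and 4156 narrower, so that this animal moved both counts by over 1.5 times. The wider count fell to 476 without inflamed animal 149198 and to 486 without 148997, and the narrower count to 826 without 149199, 880 without 148998 and 899 without 149198.

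**Figure D4:**
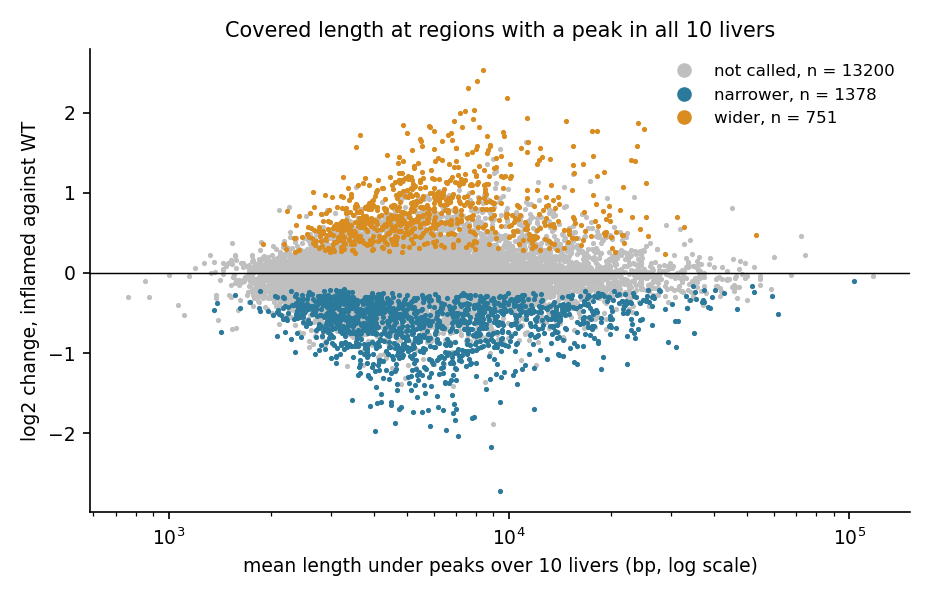
Change of covered length at each of the 15329 shared regions (vertical axis, log2, inflamed against WT) by its mean length under peaks over the 10 livers (horizontal axis, bp, log scale). Orange points are the 751 regions called wider and blue points the 1378 called narrower by limma at an adjusted p of 0.05; calls lie on both sides of 0 across most of the range of lengths.

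Regions called wider went from 3.97 Mb under peaks, summed and averaged over WT livers, to 6.78 Mb in inflamed livers, and regions called narrower from 12.9 to 8.58 Mb. These sums follow from the calls and are given as a description. The median change was 0.70 for wider and -0.56 for narrower regions on the log2 scale, and 177 of the former and 169 of the latter changed by more than 1 on that scale. When the shared regions were put into 5 equal groups by mean length, narrower calls made up 4.37%, 7.60%, 9.53%, 9.85% and 13.6% from the shortest to the longest group. Wider calls made up 1.24%, 3.69%, 5.38%, 7.76% and 6.43%, highest in the group before the longest.

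The region with the largest called increase was chr10:70510674-70526378. The WT livers had 2266, 2367, 2497, 2525 and 2722 bp under peaks there, and the inflamed livers 13665, 13779, 13876, 14314 and 15705 bp. The spread within each group was small beside the difference, a log2 change of 2.53 ± 0.080 (SE, limma, adjusted p = 1.4e-07), or 5.77-fold. Without inflamed animal 149198 the peaks merged into a shorter region, chr10:70518053-70526215, with a log2 change of 1.65 (limma, adjusted p = 2.6e-05), and over the original region the change was 2.49. At chr19:41515971-41531180 WT livers had 1601 to 4094 bp and inflamed livers 12131 to 15210 bp, a log2 change of 2.40 ± 0.21. This region had a gained region as its neighbour. At chr15:78416920-78432588 WT livers had 1783 to 4434 bp and inflamed livers 9012 to 14498 bp, a log2 change of 2.31 ± 0.23. Without inflamed animal 149198 or 149199 a shorter region was merged here, with changes of 1.39 and 1.39, and over the original region they were 2.28 and 2.27. At chr10:122317813-122334257 the inflamed livers were nearly alike, with 15267 to 16109 bp, whereas WT livers had 2327 to 4562 bp and animal 130748 7263 bp. The last of the 5 was chr13:103477654-103491480, with 1409 to 5785 bp in WT and 10928 to 13635 bp in inflamed livers.

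The largest called decrease was at chr4:140075555-140094410. The WT livers had 13663, 14192, 15125, 18084 and 18374 bp under peaks, and the inflamed livers 1574, 1667, 1808, 2074 and 7856 bp. Inflamed animal 148998 kept more than the other 4 but was still below every WT liver, and the log2 change was -2.72 ± 0.39 (SE, limma, adjusted p = 0.0015). At chr14:55764384-55781312 the WT livers had 12646 to 16929 bp and the inflamed livers 2257 to 4395 bp, a log2 change of -2.17 ± 0.20. This region lay between shared regions on either side. At chr4:135559107-135573090 the ranges were 8769 to 13753 bp and 1978 to 4738 bp, and at chr16:94456336-94463671 they were 4472 to 7267 bp and 1101 to 3127 bp. At chr13:97506907-97521513 WT livers had 6777 to 12714 bp and inflamed livers 898 to 5631 bp, a log2 change of -1.96 ± 0.45 (SE, limma, adjusted p = 0.017). Without WT animal 129296 the peaks merged into a shorter region, chr13:97507189-97515380, whose change of -1.26 did not pass (limma, adjusted p = 0.150). Without WT animal 134501 a shorter region also replaced it, with a change of -1.26 (limma, adjusted p = 0.014). Without WT animal 130748 the region was chr13:97506907-97516860, with a change of -1.70 (limma, adjusted p = 0.016). Over the original region the changes without these 3 animals were -1.87, -1.90 and -2.09.

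Shared regions that widened had a gained neighbour more often than the others, and those that narrowed more often had a lost or another narrower neighbour, although most regions of either kind had none. A gained region was the next region on one side or the other of 21.0% of wider regions (158 of 751), 7.50% of regions not called and 3.05% of narrower regions. A lost region adjoined 3.12% of narrower (43 of 1378), 1.11% of uncalled and 0.399% of wider regions. Another narrower region adjoined 20.5% of narrower, 7.38% of uncalled and 2.53% of wider regions. A wider region adjoined 8.79% of wider, 2.94% of uncalled and 1.38% of narrower regions. All these calls come from the same 10 livers and the same contrast, so the shares are a description. The order held with equal lists, where 11.9% of wider and 3.90% of uncalled regions had a gained neighbour and 8.81% of narrower and 2.99% of uncalled regions a lost one. Without WT animal 130748 the shares of wider, uncalled and narrower regions with a gained neighbour were 25.1%, 12.3% and 5.87%. A narrower neighbour then adjoined 38.7% of narrower and 17.6% of uncalled regions, and a lost one 5.13% of narrower and 2.07% of uncalled regions.

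**Figure D5:**
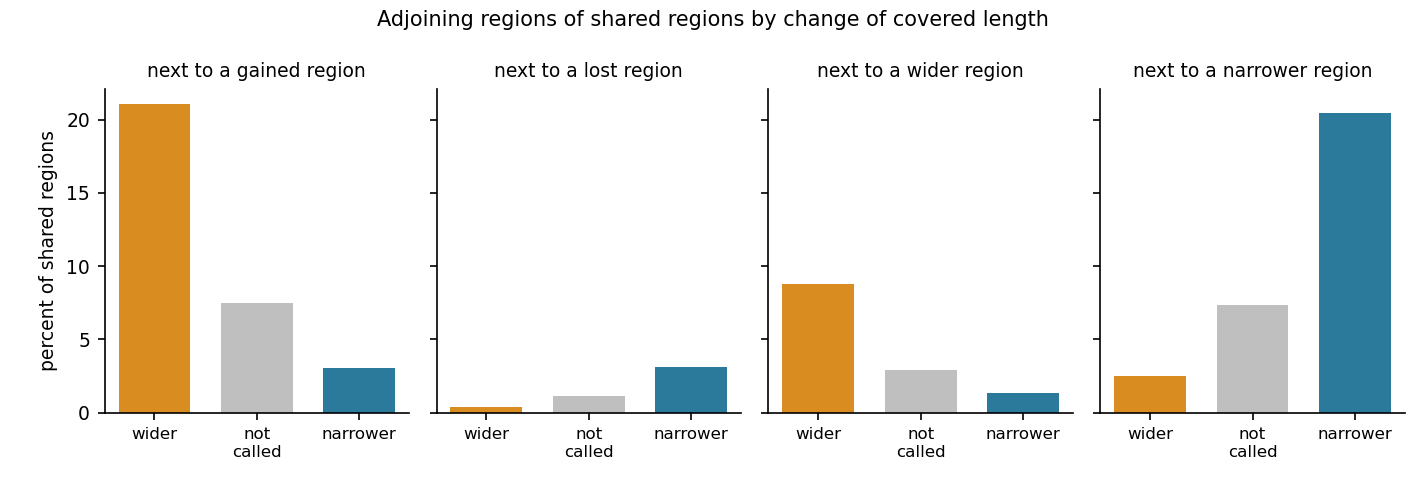
Percent of shared regions (vertical axis, from 0) whose next region on either side was gained, lost, wider or narrower, for regions called wider (751), not called (13200) and narrower (1378) in inflamed livers. Gained neighbours are most frequent beside wider regions (21.0%), and narrower neighbours beside narrower regions (20.5%).

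Long peaks covered less sequence in inflamed livers. The length in peaks of at least 20000 bp was 8.69 ± 3.31 Mb in WT and 4.20 ± 1.11 Mb in inflamed livers, with overlap of the groups (exact permutation, adjusted p = 0.0272, a measure added after values were seen). The widest shared region, chr15:58800660-58923358, was 1 peak in 4 WT livers, 5 peaks in WT animal 130748 and 3 to 7 peaks in the inflamed livers. The longest peak of a WT liver, 113709 to 121931 bp, was this undivided peak in those 4 animals, and in animal 130748 it was the undivided peak of chr14:26266025-26383362. The longest peak of an inflamed liver had 57959 to 89429 bp. The covered length of the region on chromosome 15 was 115948 to 121931 bp in WT and 113751 to 117936 bp in inflamed livers (limma, adjusted p = 0.197).

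Some other long regions did lose length. At chr4:104827054-104905017 the WT livers had 61939, 73154, 75491, 75750 and 77035 bp under peaks, lowest in animal 130748, and the inflamed livers 47018, 50977, 51520, 51547 and 54180 bp. The groups were separate, with a log2 change of -0.51 ± 0.061 (SE, limma, adjusted p = 0.00054). At chr5:124634063-124702400 the ranges were 63054 to 67832 bp and 50757 to 56189 bp (log2 change -0.29 ± 0.036, limma, adjusted p = 0.00057). The second widest region, chr14:26266025-26383362, fell by 0.11 on the log2 scale, with ranges that overlapped (limma, adjusted p = 0.046). Of the 10 widest shared regions, which were chosen after their values were seen, these 3 were called narrower and 0 wider, against 8.99% and 4.9% of all shared regions. In the longest of the 5 length groups the shares were 13.6% and 6.43%. The regions chr8:129324924-129413485, chr1:74037469-74125460 and chr7:29677930-29748954 rose by 0.22, 0.46 and 0.20 on the log2 scale without being called.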

How the data were processed

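H3K27Ac ChIP-seq of liver was compared between 5 WT and 5 inflamed mice, grouped by the sample labels. The authors aligned reads to mm9 (NCBI37), called peaks per animal and deposited 1 list each, with peak positions and a score. Bowtie 0.12.7 and MACS 1.4 are named in the submitters' processing notes. The deposited score starts at 50, many peaks share 3100, and it was used only for ranks within a list. Its scale and the control sample of the calling are not given in the sources used here. Tumour lists and the control library were not used here. Columns of other samples left unused numbered 0.

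Peaks of chromosomes 1 to 19 were merged at a gap of 0 bp, and a region was occupied by an overlap of 1 bp or more. Per-animal measures were compared by exact two-sided permutation of the difference of means, adjusted by Benjamini-Hochberg over 7 measures (6 with equal lists), 12 added measures or 19 chromosomes. Log2 covered length at shared regions was compared by limma 3.58.1 (R 4.3.3) with a trended prior. Python 3.11.15, NumPy 2.4.6, pandas 2.3.3 and matplotlib 3.10.9 were used. The steps were tested on simulated data.

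Named regions were the 5 gained and 5 lost with the longest covered length in their least covered animal and the 5 wider and 5 narrower with the largest change among limma calls with separate groups; the widest regions were chosen after their values were seen. Members, measures and tests were chosen with earlier results of these data known. Gene lists, cell markers, gene names and sequences need an mm9 reference and were not used here. Alternatives were equal lists, a score of at least 100, an overlap of 50%, merging within 1000 bp, 4 of 5 against at most 1 of 5, other width measures and filters, and leaving out each animal.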

Additional observations from a re-analysis of the deposited data

Results flagged for a closer look

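All 10 extreme values among 60 groups of 5 livers belonged to WT animal 130748, which lay farther from its group than Dixon's 95% criterion for 5 values (0.71) allows. Chance passes that criterion in about 1 of 20 groups. Its mean Jaccard index with the other WT livers was 0.505. Its share of peaks was lower than in the other WT livers on chromosome 1 (5.79%), chromosome 3 (4.68%) and chromosome 12 (3.90%). It was higher on chromosome 4 (7.02%), chromosome 7 (6.87%), chromosome 8 (5.80%), chromosome 9 (5.74%), chromosome 11 (7.97%) and chromosome 17 (4.78%). The 9 chromosomes are not independent, since shares of 1 animal sum to the whole. The number of its peaks, 28277, was within the range of its group.

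Chromosome Y, which entered no comparison, held 15 peaks in WT animal 134501 and 0 in the other 9 livers.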

How the results depend on the processing

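With equal lists of the best 25867 peaks, covered length reversed to -4.34 Mb and median peak width to 80.2 bp more in inflamed livers. The share of covered length in shared regions fell to -2.63 percentage points and did not pass, gained regions came to 1035, lost to 569, the gained distance to 48111 bp, gained regions with a gained neighbour to 20.5%, and chromosomes past the threshold to 0. For peaks in at least 4 of 5 against at most 1 of 5 livers, gained regions numbered 7421 and lost 1212, the gained distance was 29107 bp, and 44.9% of gained and 15.0% of lost regions had a neighbour of their kind. With scores of at least 100 the gained distance was 48643 bp and 4 chromosomes passed. With an overlap of at least 50% shared regions fell to 9834, narrower to 821 and wider to 283, and gained and lost distances rose to 68462 and 17992 bp. Merging within 1000 bp gave a gained distance of 48061 bp. The cause of these shifts was not tested.

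Leaving out each animal in turn gave differences in covered length from 13.8 to 23.2 Mb, which passed without WT animal 129296 (exact permutation, adjusted p = 0.0417), in median peak width from -502 to -271 bp and in peaks per shared region from 0.059 to 0.092. Gained regions ranged from 2936 to 4069, lost from 244 to 526, the gained distance from 31892 to 45665 bp, gained regions with a gained neighbour from 26.9% to 33.6%, chromosomes past the threshold from 0 (without inflamed animal 148997 or 149198) to 8, narrower regions from 826 to 4156 and wider from 476 to 1439. The differences in number of peaks, share in shared regions and distance of peaks outside them passed in all 10 such fits.

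No paired analysis was possible because the labels give the groups no shared replicate numbers. The number of peaks has no value under equal lists. Read depth and peak calling settings limit every presence or absence, so that absence of a peak is not absence of acetylation, and no interval for counting error can be given. Genotype and labelled age move together.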

Other observations

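Chromosome X, which was not part of the merged regions, held 2.01 ± 0.13% of the peaks of WT livers and 2.00 ± 0.052% of those of inflamed livers (SD, n = 5, exact permutation, p = 0.833). Its peak number followed that of the autosomes, with 508 to 650 peaks in WT and 713 to 846 in inflamed livers. A score of 3100 or more, where many peaks are tied at 3100, was carried by 18.6 ± 3.56% of the peaks of WT livers and 13.7 ± 2.09% of those of inflamed livers, with overlapping groups (exact permutation, adjusted p = 0.0423). The share was highest in WT animal 130748, at 24.4%. The number of peaks tied at 3100 was 4005 to 6691 in WT and 3788 to 5906 in inflamed livers. The inflamed lists were longer, so that the share also depends on the length of the list. These measures were added after values were seen.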
